A study of Mus musculus with 47 samples.

Results

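Peaks of 3 histone marks, H3K27ac, H3K4me1 and H3K27me3, were crossed with each other in male floxed control mouse liver. Every autosomal peak of the 3 deposited lists was taken, which gave 28862 H3K27ac peaks, 68838 H3K4me1 peaks and 16806 H3K27me3 regions. These 114506 peaks are part of 498557 in the 12 lists of the series, which also covers female liver and Ezh1/Ezh2-deficient liver. The mice carried the Ezh2 f/f allele, the floxed state that served as the control genotype, and were 7 weeks old. Frozen tissue of 4 individual livers was used for each mark, with 3 µg of antibody per 15 µg of chromatin for H3K27ac, 1.2 µg per 15 µg for H3K4me1 and 2 µg per 10 µg for H3K27me3. The reads of the 4 livers were joined before peaks were called, so there is 1 list per mark, no value for a single liver and no test. Liver tissue was used whole. A mark carried by fewer cells and a mark that is weaker in each cell therefore cannot be told apart, and marks that share bases in these lists may come from different cells.

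H3K27ac is the acetyl form of lysine 27 of histone H3 and is known from active promoters and enhancers. H3K4me1, a single methyl group on lysine 4, is known from enhancers whether or not they are active and from the flanks of active promoters. H3K27me3 is the trimethyl form of lysine 27, placed by the polycomb enzymes Ezh1 and Ezh2, and spreads over broad regions of repressed genes. A lysine 27 cannot be acetylated and trimethylated at once. Genes with H3K27me3 and an activating methyl mark at the promoter are known as bivalent in stem cells, where that methyl mark is usually H3K4me3, which was not measured here.

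The lists differed in scale. H3K27ac peaks had a median width of 479 bp and covered 17.0 Mb, and H3K4me1 peaks had a median width of 436 bp and covered 35.8 Mb. H3K27me3 regions had a median width of 30.4 kb and covered 765 Mb, which is 32.0% of the 2394 Mb of ungapped autosomal sequence. By chromosome this share lay between 25.5% (chromosome 3) and 43.7% (chromosome 11). No list gives a score or a read count, so depth is unknown and peaks cannot be ranked by strength. H3K27me3 regions were called with a window of 400 bp and a stated gap of 2400 bp, and such calls join windows across gaps. A region can therefore hold bases without signal, and how many shared bases lie in bridged gaps was not tested.

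To show what the combinations look like in sequence, 5 promoters were chosen, each the first gene named for its combination of marks within 1 kb of the start. Each is 300 bases of the NCBIM37 genome (mm9), from 250 bases before to 50 bases from the most upstream annotated start, on the strand of the gene, with CpG dinucleotides in capitals. The most upstream start need not be the main start of a gene, which these data do not give. The marks are those within 1 kb of the start and need not touch the printed bases. The peaks of Alb, the H3K27ac of Foxa1 and the H3K4me1 of Pax2 lie outside them. Alb, the gene of serum albumin, had H3K27ac and H3K4me1 (chr5:90889665-90889964, plus strand, 3 CpG). Apoh, the gene of apolipoprotein H, had all 3 marks (chr11:108204418-108204717, plus strand, 22 CpG). Foxa1, a pioneer transcription factor of liver, had H3K27ac and H3K27me3 (chr12:58647059-58647358, minus strand, 25 CpG). Pax2, a transcription factor of kidney development, had H3K4me1 and H3K27me3 (chr19:44830289-44830588, plus strand, 18 CpG). Hoxa9, a transcription factor of body patterning, had H3K27me3 alone (chr6:52181039-52181338, minus strand, 5 CpG).
Alb: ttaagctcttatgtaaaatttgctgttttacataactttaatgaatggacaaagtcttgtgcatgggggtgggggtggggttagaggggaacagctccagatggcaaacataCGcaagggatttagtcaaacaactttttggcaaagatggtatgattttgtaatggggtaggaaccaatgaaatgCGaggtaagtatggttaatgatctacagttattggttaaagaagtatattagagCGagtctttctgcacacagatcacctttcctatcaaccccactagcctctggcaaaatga
Apoh: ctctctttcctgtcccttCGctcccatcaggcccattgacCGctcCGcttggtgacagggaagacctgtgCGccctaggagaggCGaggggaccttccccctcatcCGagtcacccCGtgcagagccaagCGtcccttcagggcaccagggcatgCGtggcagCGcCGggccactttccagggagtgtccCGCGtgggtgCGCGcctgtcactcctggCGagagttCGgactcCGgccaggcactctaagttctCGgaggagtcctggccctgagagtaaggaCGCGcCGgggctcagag
Foxa1: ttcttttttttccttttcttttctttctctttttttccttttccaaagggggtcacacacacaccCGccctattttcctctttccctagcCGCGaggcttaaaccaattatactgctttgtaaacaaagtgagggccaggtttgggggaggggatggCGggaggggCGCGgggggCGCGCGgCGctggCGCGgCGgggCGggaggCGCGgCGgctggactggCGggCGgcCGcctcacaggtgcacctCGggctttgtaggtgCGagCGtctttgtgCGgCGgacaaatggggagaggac
Pax2: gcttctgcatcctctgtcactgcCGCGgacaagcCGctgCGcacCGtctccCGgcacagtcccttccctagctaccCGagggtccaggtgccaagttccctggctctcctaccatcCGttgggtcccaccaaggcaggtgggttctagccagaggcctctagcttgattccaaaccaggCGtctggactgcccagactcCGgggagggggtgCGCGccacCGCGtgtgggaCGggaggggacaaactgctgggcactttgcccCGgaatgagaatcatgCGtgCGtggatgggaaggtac
Hoxa9: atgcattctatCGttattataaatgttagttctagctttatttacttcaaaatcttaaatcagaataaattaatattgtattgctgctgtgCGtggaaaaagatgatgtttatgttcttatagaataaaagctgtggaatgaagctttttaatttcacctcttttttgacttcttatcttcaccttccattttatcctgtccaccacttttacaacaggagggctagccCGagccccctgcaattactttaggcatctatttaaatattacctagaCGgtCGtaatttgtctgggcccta

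The activating marks shared bases with each other far more often than uniform placement would give, and H3K27ac shared fewer with H3K27me3. Uniform placement here means that each mark keeps its covered share of each chromosome and is spread evenly over the ungapped sequence. H3K27ac and H3K4me1 together covered 6.20 Mb against 0.261 Mb under uniform placement, a ratio of 23.7. H3K27ac and H3K27me3 shared 2.28 Mb against 5.56 Mb, a ratio of 0.410. H3K4me1 and H3K27me3 shared 10.2 Mb against 11.7 Mb, a ratio of 0.873. The ratio of H3K27ac to H3K27me3 lay below 1 on each of the 19 autosomes, from 0.326 on chromosome 9 to 0.554 on chromosome 14. That of H3K4me1 to H3K27me3 ran from 0.641 on chromosome 19 to 1.05 on chromosome 3, and was above 1 on 2 autosomes.

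Split into the 7 possible combinations, H3K27me3 alone took 754 Mb, H3K4me1 alone 20.6 Mb, H3K27ac alone 9.64 Mb and H3K4me1 with H3K27me3 9.03 Mb. H3K27ac with H3K4me1 and no H3K27me3 took 5.05 Mb. The smallest were all 3 marks with 1.15 Mb and H3K27ac with H3K27me3 with 1.13 Mb, and 66.6% of the bases had no mark. All 3 marks were found on 13.2 times the 0.0874 Mb of uniform placement, whereas H3K27ac with H3K27me3 alone reached 0.206 of it. The first of these ratios carries the overlap of H3K27ac with H3K4me1 in it. Of the bases with both activating marks 18.6% lay in H3K27me3 regions, which is below the 32.0% of all bases and above the 10.5% of bases with H3K27ac and no H3K4me1. Of the bases with H3K4me1 and no H3K27ac 30.5% lay there.

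When placement was kept within promoters, within gene bodies or between genes, the ratio for all 3 marks was 3.95 and that for H3K27ac with H3K4me1 fell from 29.0 to 8.75. The ratio for H3K27ac with H3K27me3 was then 0.211, close to its value without this restriction.

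**Figure D1:**
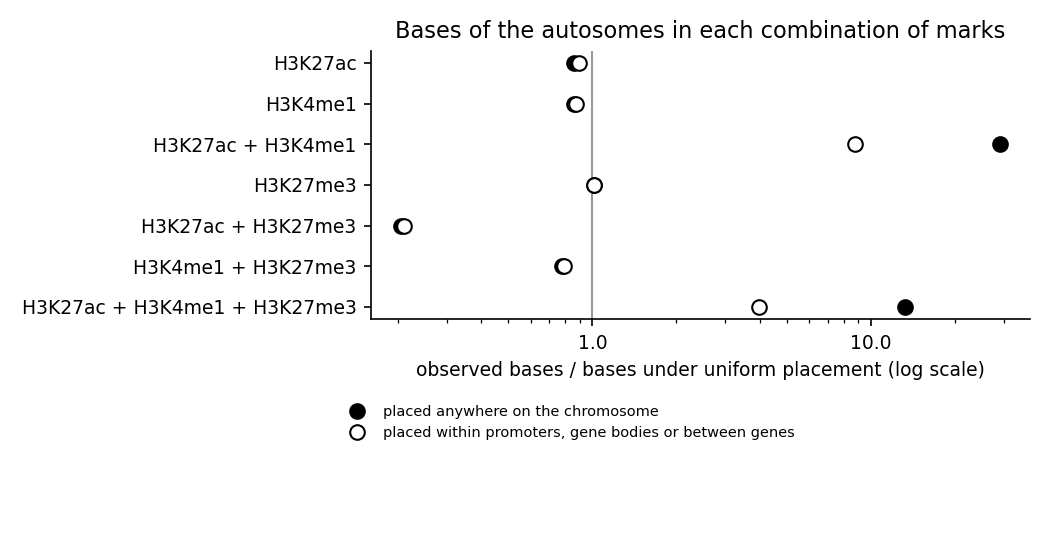
Observed bases of each combination divided by the bases under uniform placement, on a log axis, for the autosomes of control male liver. Filled points stand for placement anywhere on the same chromosome and open points for placement within the same position class. All 3 marks (13.2) and H3K27ac with H3K4me1 (29.0) lie to the right of 1, and H3K27ac with H3K27me3 (0.206) lies farthest to the left.

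Counted by peaks with an overlap of at least 1 bp, 64.3% of H3K27ac peaks touched H3K4me1 and 15.7% touched H3K27me3 regions. Of the H3K27ac peaks 15059 (52.2%) overlapped H3K4me1 only, 9264 (32.1%) overlapped neither other mark, 3485 (12.1%) overlapped both and 1054 (3.65%) overlapped H3K27me3 only. The 64.3% with H3K4me1 (Wilson 95% interval 63.7 to 64.8%) compare to 3.12% under placement of peaks of the same widths. The share was 42.2% when 50% or more of the peak had to overlap and 42.0% when its midpoint had to lie in H3K4me1. H3K27me3 was overlapped by 15.7% (15.3 to 16.2%), where placement would give 33.1%. Such intervals hold for counting error alone, as if each peak were independent of its neighbours. An H3K27ac peak with H3K4me1 lay in H3K27me3 in 18.8% of cases and one without H3K4me1 in 10.2%.

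The H3K4me1 list was read from the other side. Of its peaks 33974 (49.4%) overlapped neither other mark, 15573 (22.6%) H3K27ac only, 15589 (22.6%) H3K27me3 only and 3702 (5.38%) both. H3K4me1 peaks overlapped H3K27me3 in 28.0% of cases (27.7 to 28.4%) against 32.9% under placement. The share was 31.5% for H3K4me1 peaks without H3K27ac and 19.2% for those with it. Where H3K27ac and H3K4me1 peaks met, H3K4me1 covered a median of 70.7% of the H3K27ac peak. Of the 18544 H3K27ac peaks that met H3K4me1 4853 lay wholly inside an H3K4me1 peak.

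Peak width went along with these shares when each list was cut by width into 4 classes of like size. H3K27ac peaks of the narrowest class (221 to 320 bp) overlapped H3K27me3 in 18.2% of cases and lay at promoters in 21.1%, and those of the widest class (751 to 2929 bp) did so in 11.9% and 76.0%. For H3K4me1, overlap with H3K27ac ran from 14.4% in the narrowest class to 43.6% in the widest, while placement would give 1.01% and 1.76%. Overlap of H3K4me1 with H3K27me3 lay between 26.5% and 30.7% in the 4 classes.

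Seen from the H3K27me3 regions, 8931 (53.1%) held no peak of either activating mark, 4759 (28.3%) held H3K4me1 peaks only, 3005 (17.9%) held both and 111 (0.660%) held H3K27ac peaks only. Placement of regions of these widths would leave 59.1% without either and give 22.9% both. Wide regions were seldom free of activating marks. The share with neither was 74.3% for regions under 20 kb, close to the 73.8% of placement, and 14.2% for the 1466 regions of 100 kb or more, where placement would give 32.3%. Both marks were held by 37.9% of these wide regions against 47.7% under placement, and H3K4me1 peaks only by 47.6%. Of the 5271 regions that contain the start of a protein-coding gene 39.9% held both marks and 19.5% held neither. Of the 11535 regions without such a start 7.83% held both and 68.5% held neither. Regions with a start were also wider, with a median of 44.8 kb against 26.4 kb, and the part of width in this difference was not tested.

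Counted by bases, combinations with H3K27ac and no H3K4me1 lay mostly at promoters, whereas H3K4me1 alone lay mostly in gene bodies. A promoter is here the sequence within 1 kb of any annotated start, a gene body the rest of an annotated gene. These classes and the sequence between genes take 4.17%, 38.8% and 57.0% of the ungapped autosomes. Of the bases with H3K27ac alone 68.4% were at promoters, as were 66.8% of those with H3K27ac and H3K27me3. The share was 47.3% for all 3 marks, 30.0% for H3K4me1 with H3K27me3, 29.5% for H3K27ac with H3K4me1 and 15.8% for H3K4me1 alone. Bases with H3K27me3 alone followed the genome, with 3.91% at promoters, 39.6% in gene bodies and 56.5% between genes. Bases of H3K4me1 alone were in gene bodies for 56.5%, and those of H3K4me1 with H3K27me3 were split evenly between promoters (30.0%) and gene bodies (29.9%), with 40.1% between genes.

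**Figure D2:**
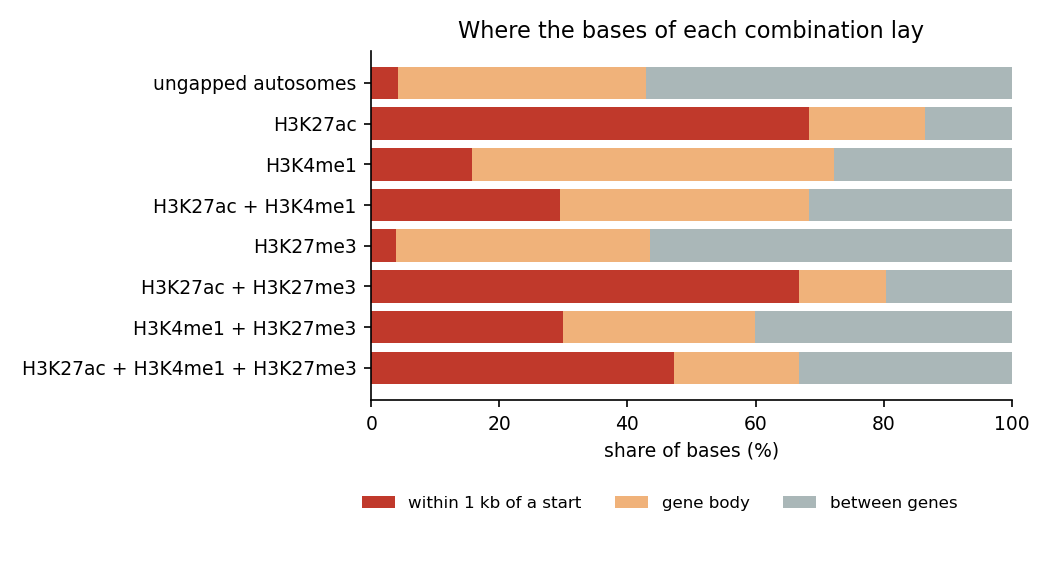
Share of the bases of each combination that lay within 1 kb of an annotated start, in a gene body or between genes, in percent, with the ungapped autosomes in the top bar. Promoters take 4.17% of the autosomes, 68.4% of bases with H3K27ac alone and 3.91% of bases with H3K27me3 alone.

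By peak midpoints, 55.0% of H3K27ac peaks without another mark lay at promoters, 49.9% of those with both other marks, 47.6% of those with H3K27me3 only and 36.0% of those with H3K4me1 only. Their median distances from the nearest start were 682, 1036, 1358 and 6054 bp. With promoters within 250 bp in place of 1 kb, the share of all H3K27ac peaks without H3K27me3 that lay there fell from 43.2% to 16.9%. Of 33974 H3K4me1 peaks without another mark 4087 lay at promoters and 59.6% in gene bodies, with a median distance of 10.2 kb, and of those with H3K27me3 only 25.2% lay at promoters, with a median of 9.54 kb. By position class, H3K27ac peaks overlapped H3K4me1 in 56.1% of cases at promoters, 68.7% in gene bodies and 73.1% between genes, where placement within the class would give 17.4%, 3.27% and 1.58%. H3K27ac peaks overlapped H3K27me3 least in gene bodies, with 10.2%, compared to 17.6% at promoters and 19.2% between genes, and all 3 lie below the 32.5 to 34.3% of placement in the same class. H3K4me1 peaks lay below placement in gene bodies and somewhat above it elsewhere. In gene bodies 17.7% overlapped H3K27me3, where placement would give 33.0%, whereas 38.4% did at promoters (placement 34.2%) and 36.0% between genes (placement 32.6%).

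The longest stretches of each combination give examples. The 2 longest stretches of H3K27ac alone measured 2929 bp in Nr5a2, a nuclear receptor of bile acid metabolism (chr1:138843031-138845959), and 2647 bp in Brd2, a reader of acetylated histones (chr17:34256890-34259536). For H3K4me1 with H3K27me3 they measured 2243 bp at Rimbp3 and 2101 bp at Mfsd2b. H3K27ac with H3K27me3 ran for 2133 bp in Pard3, a cell polarity gene (chr8:129587572-129589704), and for 1984 bp in Yap1, the effector of Hippo signalling (chr9:8002936-8004919). All 3 marks ran together for 1353 bp, 905 bp from Coil (chr11:88829308-88830660), and for 1224 bp in Ppp1r3g, a regulator of glycogen synthesis. The named stretches that combine H3K27me3 with H3K27ac, H3K4me1 or both are all shorter than the stated gap of 2400 bp. H3K27ac with H3K4me1 ran for 1714 bp at 29043 bp from Arl5b, its nearest gene, and H3K4me1 alone for 2596 bp at 556 bp from Pank1, a kinase of coenzyme A synthesis. The longest stretch of H3K27me3 without another mark, 439050 bp, overlapped Kcnma1, which encodes a potassium channel, and the next, 388962 bp, overlapped Accn1, which encodes a neuronal ion channel.

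H3K27ac and H3K4me1 peaks were densest at 1 to 2 kb outside the edges of H3K27me3 regions, and inside the regions H3K27ac thinned out more steeply than H3K4me1. H3K27ac peaks had a density of 15.0 per Mb outside the regions and 5.73 per Mb inside, a ratio of 2.62. The densities of H3K4me1 were 30.6 and 24.8 per Mb, a ratio of 1.23. At 1 to 2 kb outside an edge there were 39.2 H3K27ac peaks per Mb (exact Poisson 95% interval 37.0 to 41.5). The density was 25.5 at 0 to 1 kb, 19.7 at 20 to 50 kb and 11.1 beyond 50 kb. Inside, the density was 11.0 per Mb at 1 to 2 kb (9.95 to 12.2) and 3.10 beyond 50 kb (2.76 to 3.48). H3K4me1 stood at 53.6 per Mb at 1 to 2 kb outside, 39.4 at 0 to 1 kb, 40.5 at 20 to 50 kb and 23.7 beyond 50 kb. In every bin inside, H3K4me1 lay between 20.1 and 28.4 per Mb. Region widths are multiples of 400 bp, so the 0 to 1 kb bins place an edge only coarsely.

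**Figure D3:**
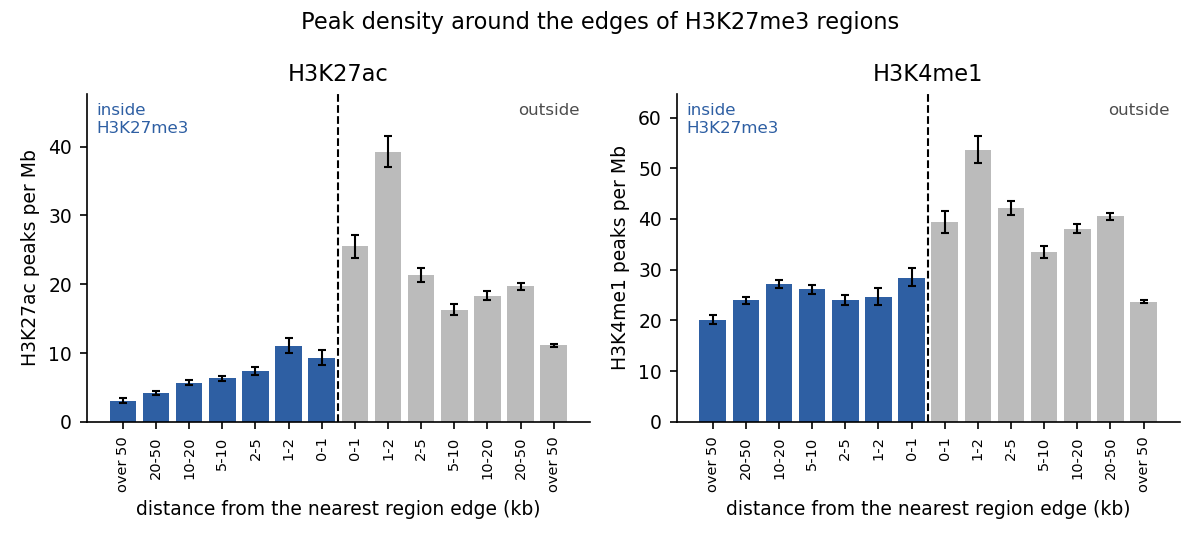
Peaks per Mb by distance of the peak midpoint from the nearest edge of an H3K27me3 region, for H3K27ac (left) and H3K4me1 (right). Blue bars lie inside regions and grey bars outside, and whiskers are exact Poisson 95% intervals. H3K27ac falls from 11.0 to 3.10 per Mb towards the inside, and H3K4me1 stays between 20.1 and 28.4.

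Each of 21418 autosomal protein-coding genes was given a state from the marks within 1 kb of its most upstream annotated start. For some genes this may not be the start in main use. H3K27ac was present at 45.6% of these promoters, H3K4me1 at 48.0% and H3K27me3 at 39.3%. The most frequent state was H3K27ac with H3K4me1 (5527 genes, 25.8%), followed by no mark (4980, 23.3%), H3K27me3 alone (3919, 18.3%), H3K4me1 with H3K27me3 (2202, 10.3%), all 3 marks (2008, 9.38%) and H3K27ac alone (1951, 9.11%). H3K4me1 alone (550, 2.57%) and H3K27ac with H3K27me3 (281, 1.31%) were rare. Of promoters with H3K27ac 23.4% had H3K27me3 (Wilson 95% interval 22.6 to 24.3%), and of those without H3K27ac 52.5% had it (51.6 to 53.4%). H3K4me1 was found at 77.1% of promoters with H3K27ac and at 23.6% of the others. Over all promoters the share with H3K27me3 was 40.9% with H3K4me1 and 37.7% without it, but it differed within each H3K27ac class. Of promoters with H3K27ac 26.6% (25.7 to 27.7%) had H3K27me3 where H3K4me1 was present and 12.6% (11.3 to 14.0%) where it was not. Of promoters without H3K27ac the shares were 80.0% (78.5 to 81.5%) and 44.0% (43.0 to 45.1%).

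H3K27me3 at a promoter mostly extended over the gene when H3K27ac was absent. The median gene with H3K27me3 alone had 100.0% of its span in H3K27me3 regions, as did the median gene with H3K4me1 and H3K27me3. With all 3 marks the median was 36.6%, with H3K27ac and H3K27me3 10.4%. The region covered the whole 2 kb window at 96.4% of 6121 promoters with H3K27me3 and no H3K27ac, and at 69.4% (67.5 to 71.2%) of 2289 promoters with both. At 701 of the latter an edge fell in the window, and in 603 of these (86.0%) the region lay on the upstream side of the edge. At the 222 promoters without H3K27ac that had an edge in the window the region lay upstream at 100. At 1798 (78.5%) of the 2289 promoters with both marks an H3K27ac peak of the window overlapped the region itself, and at the others the marks shared a window and no base. H3K27me3 covered 91.0% of these 2289 genes at 5 kb upstream, 95.7% at 1 kb upstream, 74.1% at the start and 57.2% at 5 kb downstream.

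H3K4me1 sat beside the start at promoters with H3K27ac and on the start at promoters with H3K27me3 and no H3K27ac. At the 7478 promoters with H3K27ac and no H3K27me3, H3K4me1 covered the start of 3.13% of genes, 23.0% at 700 bp upstream and 40.5% at 900 bp downstream. H3K27ac, which was used to choose these genes, covered 84.6% at 300 bp downstream and 40.7% at the start. At the 6121 promoters with H3K27me3 and no H3K27ac, H3K4me1 covered 20.4% of starts and had a single maximum of 23.4% at 200 bp downstream. At the 2289 promoters with both, H3K4me1 had maxima of 31.7% at 400 bp upstream and 50.3% at 700 bp downstream, and 15.6% at the start. H3K4me1 was not used to form these 3 groups. At 5 kb from the start it covered between 1.00% and 2.88% of genes in each of them.

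**Figure D4:**
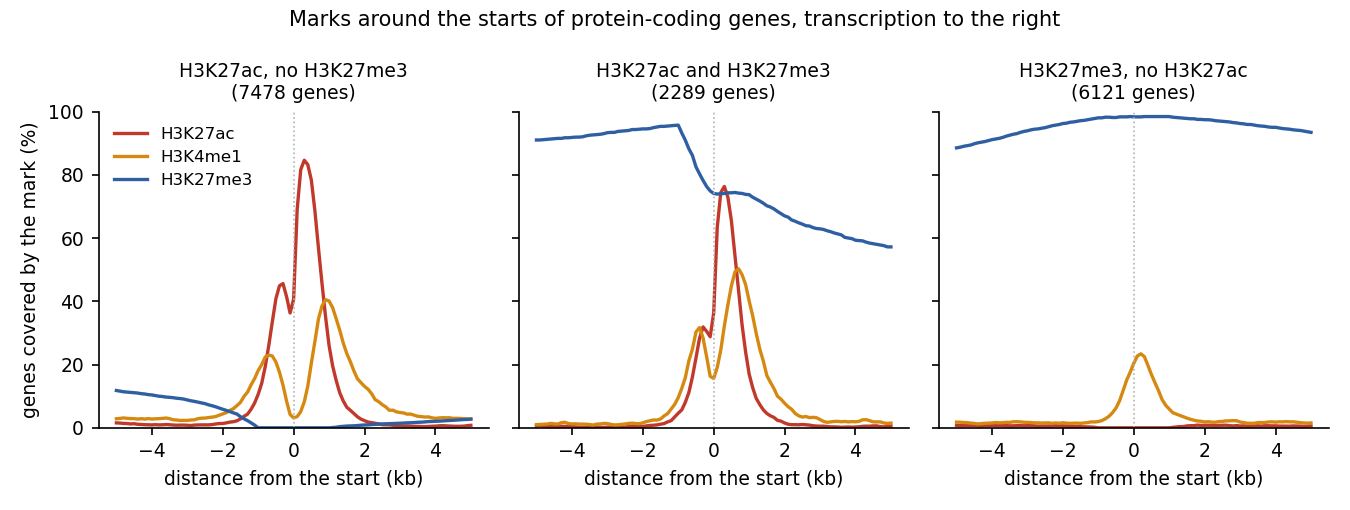
Percent of genes covered by each mark from 5 kb before to 5 kb after the most upstream start, with transcription to the right, for 3 groups of promoters set by H3K27ac and H3K27me3 within 1 kb. H3K4me1 (ochre) has a maximum on either side of the start and 3.13% at the start in the left panel, and a single maximum of 23.4% in the right panel.

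CpG content differed between many of the promoter states. A promoter was called CpG-rich when its 300 bases held at least 50% GC and a CpG observed over expected ratio of at least 0.6. Of all promoters 42.8% were CpG-rich, compared to 73.0% with H3K27ac and H3K4me1, 70.4% with all 3 marks, 68.9% with H3K27ac alone, 56.9% with H3K27ac and H3K27me3, 55.7% with H3K4me1 and H3K27me3, 41.1% with H3K4me1 alone, 11.7% with H3K27me3 alone and 6.09% with no mark. Among CpG-rich promoters with H3K27me3 and no H3K27ac 72.8% had H3K4me1 (1227 of 1686), and among the others 22.0% had it (975 of 4435). Of the printed windows at most upstream starts, those of Pax2 (64.0% GC, ratio 0.586) and Hoxa9 (34.3% GC, ratio 0.572) are both outside the CpG-rich definition. The annotated span of Hoxa9 is 7.99 kb, and a window at another of its starts was not examined. The ratio of Foxa1 is 0.940 and that of Apoh 0.667. The Alb promoter, with H3K27ac and H3K4me1 within 1 kb of its start, had few CpG, with a ratio of 0.261 and 40.3% GC.

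Away from promoters the combinations also differed in base composition. In 300 bases around the midpoint of H3K4me1 peaks between genes, 6.61% of those with H3K27me3 were CpG-rich compared to 0.436% of those without another mark, and 0.843% of 239367 windows taken every 10 kb. At promoters 53.2% of H3K4me1 midpoints with H3K27me3 were CpG-rich and 4.70% of those without another mark. For H3K27ac peaks between genes the shares were 5.28% without another mark, 2.08% with H3K4me1 only, 8.60% with H3K27me3 only and 9.65% with all 3 marks.

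Short motifs were searched on both strands of the same windows. The HNF4 letters CAAAGTCCA were present in 1.63% of H3K4me1 peaks between genes without another mark, 0.895% with H3K27ac, 1.31% with H3K27me3 and 0.388% of the 10 kb grid. The CEBP letters TTGCNCAA were present in 5.12%, 3.44% and 5.08% of these peaks and in 2.80% of the grid, and the FOXA letters TGTTTAC in 577 of 9623, 236 of 4358 and 435 of 6706 of them and in 4.48% of the grid. HNF4, CEBP and FOXA proteins are transcription factors of hepatocytes. The ETS letters CCGGAAG were found at 24.4% of promoters with H3K27ac and H3K4me1 and 13.1% of those with H3K27ac alone, and at 3.19% with H3K27me3 alone, 3.45% with H3K4me1 and H3K27me3, 9.25% with H3K27ac and H3K27me3, 15.3% with all 3 marks and 10.9% of all promoters. The GC box GGGCGG, whose end bases can overlap those of the ETS letters, was found at 63.8% with H3K27ac and H3K4me1, 62.4% with H3K4me1 and H3K27me3, 23.2% with H3K27me3 alone and 43.7% of all promoters. The CTCF motif, searched as a fixed consensus with alternative bases at some positions, was present at 0.537% of all promoters and at most at 1.42% in any state. The STAT5 letters TTCCNGGAA were found at 1.18% of all promoters, with 0.772% to 1.59% in the 8 states. The ETS and GC box letters both hold a CpG, and the part of CpG content in their differences between states was not tested. A match to letters is a description and shows no binding.

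Hepatocyte genes mostly had H3K27ac without H3K27me3 at the promoter. The lists of genes are read beside all protein-coding genes, of which 45.6% had H3K27ac, 48.0% H3K4me1 and 39.3% H3K27me3. Of 18 genes of secreted proteins 15 had H3K27ac, 9 H3K4me1 and 1 H3K27me3. At Alb the H3K27ac peak of 537 bp lay at -885 to -349 bp from the start and the H3K4me1 peak of 295 bp at -887 to -593 bp, and the nearest H3K27me3 region was 63.5 kb away. At Apob, the gene of the main protein of very low density lipoprotein, H3K27ac covered the start with a peak of 1294 bp and H3K4me1 lay upstream of it. Apoc3, an inhibitor of lipoprotein lipase, had a 1214 bp H3K27ac peak from 521 bp after its start. Its neighbour Apoa1, the gene of the main protein of high density lipoprotein, had no mark within 1 kb of its start. The nearest H3K27ac peak was that of Apoc3, 5322 bp away, and the nearest H3K4me1 peak was 4659 bp upstream. Apoa2, which encodes another protein of high density lipoprotein, had H3K27ac alone. Apoh had all 3 marks at its most upstream annotated start, inside an H3K27me3 region of 44.0 kb that took 52.5% of the gene. The annotated span of Apoh is 71.0 kb, and which of its starts liver uses is not in these data.

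Of 18 liver transcription factors and receptors 15 had H3K27ac and 3 had H3K27me3. Hnf4a, a nuclear receptor that specifies hepatocytes, had H3K27ac and H3K4me1 with the nearest H3K27me3 11.3 kb upstream. Nr1h4, the bile acid receptor, and Nr1i2, a receptor for foreign compounds, had the same state. The 3 with H3K27me3 all had H3K27ac as well. Foxa1 lay wholly in a region of 25.6 kb with 2 narrow H3K27ac peaks in its promoter window, the nearest 357 bp wide. Foxa2, its paralog, lay wholly in a region of 91.2 kb with H3K27ac of 557 bp from 69 bp after the start and H3K4me1 of 1318 bp before it. Onecut1, named here because the count was small, was the third.

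Growth hormone signalling genes had a like pattern, with H3K27ac at 10 of 12 and H3K27me3 at 2. Ghr, the growth hormone receptor, its kinase Jak2 and the transcription factor Stat5a had H3K27ac alone. Cish, a feedback inhibitor, had H3K27ac and H3K4me1, and an H3K27me3 region of 74.4 kb ended 1557 bp upstream of its start. Socs1, another feedback inhibitor, had all 3 marks and lay wholly in a region of 64.0 kb, with a 1246 bp H3K27ac peak over the start. Igf1, the hormone that growth hormone induces in liver, had H3K4me1 on its most upstream start and the nearest H3K27ac peak 1838 bp downstream. Cux2, a transcription factor, had H3K4me1 and H3K27me3 in a region of 232800 bp and was named after its values were seen.

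Metabolic and maintenance genes were almost free of promoter H3K27me3. It was found at 0 of 16 genes of glucose and amino acid metabolism, at 2 of 13 bile acid and cholesterol genes and at 0 of 16 cell maintenance genes. H3K27ac was found at 13, 10 and 16 of these. The gluconeogenic genes G6pc, Fbp1 and Pcx had H3K27ac alone, Pck1 had H3K27ac and H3K4me1, and Cps1 of the urea cycle had H3K4me1 with the nearest H3K27ac peak 1429 bp downstream. Tat, a tyrosine-degrading enzyme, had no mark within 1 kb. Cyp8b1, Slc10a1 and Baat, of bile acid synthesis, uptake and conjugation, had H3K27ac alone, and Cyp7a1, the rate-limiting enzyme of bile acid synthesis, had no mark, and the H3K27ac peak nearest to its start was 12.8 kb away. Sqle, an enzyme of cholesterol synthesis, had all 3 marks at the edge of a region of 14.4 kb that ended 1368 bp into the gene. Actb, Gapdh and Tbp had H3K27ac and H3K4me1, and Eef2 H3K27ac alone.

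Developmental regulators had the opposite pattern. Of 29 developmental transcription factors 28 had H3K27me3, which 39.3% of all genes had, and 2 had H3K27ac, which 45.6% of all genes had. Of the 28, 15 had H3K27me3 alone, 11 had H3K4me1 too and 2 had all 3 marks. Hoxa9, Hoxb4 and Hoxd10 had H3K27me3 alone in regions of 316, 311 and 209 kb. Pax2 lay in a region of 361 kb with a 223 bp H3K4me1 peak from 274 bp after its start. Tbx3 had a 283 bp H3K27ac peak and a 600 bp H3K4me1 peak in a region of 314 kb, and Nkx2-5, named because the count was small, was the other gene with all 3. Gata6, a transcription factor of heart and gut, was the single one with no mark.

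Of 16 developmental signalling ligands 13 had H3K27me3, 7 of them with H3K4me1 and no H3K27ac, 5 alone and 1 with all 3 marks. Wnt1, Wnt7b and Wnt10b had H3K4me1 and H3K27me3, and Wnt3a H3K27me3 alone. Bmp7 had all 3 marks, with a 521 bp H3K27ac peak over the start and a 1118 bp H3K4me1 peak after it in a region of 96.0 kb. The exceptions without H3K27me3 were Nodal with H3K4me1, and Inhba and Inhbe with H3K27ac alone. Inhba and Inhbe encode activin subunits and were named because the count was small.

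Genes of other organs had H3K27me3 at 19 of 22 promoters and H3K27ac at 0, and 16 had H3K27me3 alone. Ins2 of pancreatic beta cells lay wholly in a region of 210.0 kb and Gcg of alpha cells in one of 95.6 kb. Ins1, the other insulin gene of the mouse, had no mark at the promoter, and the nearest H3K27me3 region was 62.0 kb away. Syt1, a synaptic vesicle protein, was among 3 with H3K4me1 and H3K27me3.

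Markers of the other cells of liver resembled genes of other organs rather than hepatocyte genes. H3K27me3 was found at 10 of 14 endothelial, 9 of 11 Kupffer cell and macrophage, 11 of 12 stellate cell and fibroblast, 8 of 9 cholangiocyte and 10 of 11 lymphocyte markers, and H3K27ac at 1, 0, 1, 3 and 0 of them. Among endothelial genes Pecam1, Cdh5 and Kdr had H3K27me3 alone and Erg had H3K4me1 and H3K27me3, Lyve1 had no mark, and Tek had a 246 bp H3K27ac peak 918 bp after its start. Clec4f, Adgre1 and Cd5l of Kupffer cells, Des, Dcn and Col3a1 of stellate cells and fibroblasts, and Cd3e, Cd3d and Cd8a of T cells had H3K27me3 alone. Lrat, which stores vitamin A in stellate cells, had an 855 bp H3K4me1 peak over its start in a region of 154 kb. Reln had all 3 marks. Among cholangiocyte genes Krt19, Krt7 and Spp1 had H3K27me3 alone, Epcam had H3K4me1 and H3K27me3, and Sox9 had H3K27ac and H3K27me3. These lists, with the hepatocyte list at 15 of 18 for H3K27ac, are the check of the tissue label. Whether cells that express these markers lack H3K27me3 there cannot be told from whole tissue.

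**Figure D5:**
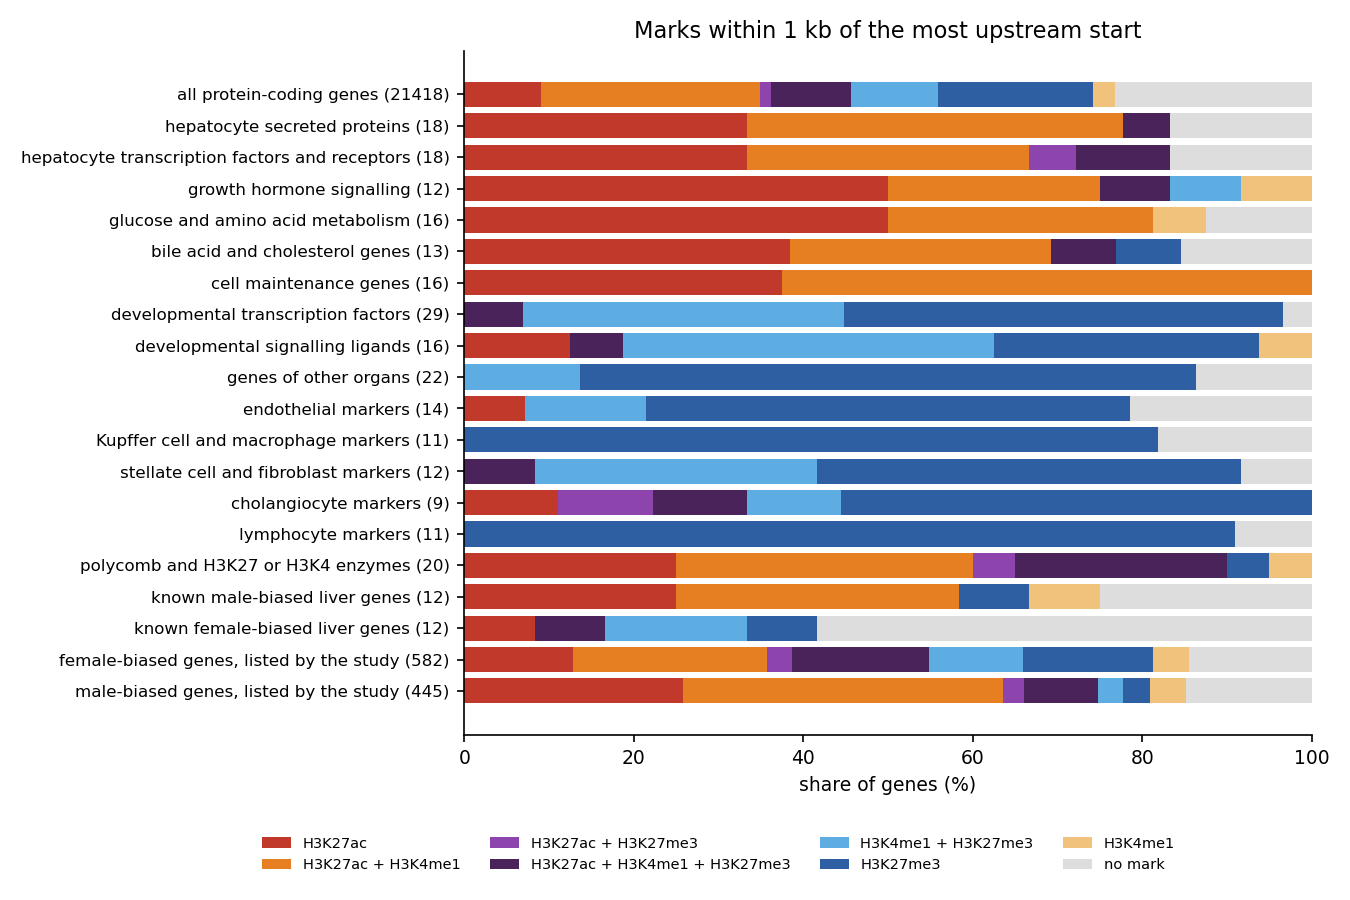
Share of genes, in percent, in each of the 8 promoter states for the gene lists and, in the top bar, for all 21418 protein-coding genes. Numbers of autosomal genes stand in parentheses. H3K27ac without H3K27me3 (red and orange) takes most of the hepatocyte, metabolic and maintenance lists, and H3K27me3 without H3K27ac (blue) takes most of those of development, other organs and other liver cells.

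Polycomb and histone-modifying enzymes had H3K27ac at 18 of 20 promoters, compared to 45.6% of all genes. H3K27me3 was found at 7 (35.0%, 18.1 to 56.7%), a share near the 39.3% of all genes. The methyltransferase Ezh2, the floxed gene, had H3K27ac over its start and H3K4me1, with H3K27me3 ending 1861 bp upstream. Its paralog Ezh1 had all 3 marks, and its region of 27.2 kb reached 576 bp into the gene. Eed, a PRC2 subunit, had H3K27ac alone, whereas Bmi1, a PRC1 subunit, had H3K27ac and H3K27me3, with a region of 109.6 kb starting 556 bp after the start. Jarid2 and Mtf2 had H3K27ac and H3K4me1.

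The study's lists of sex-biased genes were read by direction only. They were drawn from livers of the same kind and are not independent evidence. The study kept only liver-expressed genes in them, whereas the share of all genes also counts genes not expressed in liver. Of 445 male-biased genes found on autosomes 74.8% had H3K27ac and 17.3% (14.1 to 21.1%) had H3K27me3 at the promoter in male liver. Of 582 female-biased genes 54.8% had H3K27ac and 45.5% (41.5 to 49.6%) had H3K27me3, compared to 45.6% and 39.3% of all genes. All 3 marks together were found at 16.2% of the female-biased genes (94, 13.4 to 19.4%) and at 8.76% of the male-biased genes (39, 6.48 to 11.8%), compared to 9.38% of all genes. Among 12 well known male-biased genes 7 had H3K27ac and 1, Elovl3, had H3K27me3, and Cyp7b1 and Hsd3b5 had H3K27ac without it. Among 12 well known female-biased genes 2 had H3K27ac and 4 had H3K27me3. Hao2 had H3K4me1 over its start in a region of 32.4 kb, Sult3a1 had H3K27me3 alone and Acot3 had all 3. No mark was found at the promoter of 7 of the 12, whereas 14.4% (11.8 to 17.5%) of the 582 female-biased genes listed by the study and 23.3% of all genes had none. Of these, 4 (Cyp2a4, Cyp17a1, Cyp2c69 and Ptgds) had no base of their span in H3K27me3. The cytochrome P450 genes Cyp2b9, Cyp2b13 and Cyp3a16 had 37.8%, 50.8% and 64.7% of their spans in H3K27me3. The region nearest to the start began 23.2, 17.1 and 5.79 kb after it. At Cyp3a16 this region, 14.4 kb wide, is only part of the H3K27me3 in the 33.4 kb gene.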

How the data were processed

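ChIP-seq reads of H3K27ac, H3K4me1 and H3K27me3 from 4 male floxed control livers were joined per mark by the authors, mapped with Bowtie2 (version 2.3.2, mm9) (both per the submitters' processing notes) and searched for peaks with MACS2 (version 2.1.1) for H3K27ac and H3K4me1 and with SICER (version 1.1, window 400 bp, gap 2400 bp) for H3K27me3. The deposited lists hold chromosome, start and end of each peak, with no score, fold or count. The number of reads is not given in the sources used here. In the deposited H3K27me3 list 596 of 16787 neighbouring pairs lie under 2400 bp apart, closer than the stated gap, and 72 of these abut.

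From these lists autosomal peaks were crossed by an overlap of at least 1 bp. A base was added to each H3K27me3 end (1 bp), since those ends are inclusive. A promoter is within 1 kb of a start, and CpG-rich means at least 50% GC and a CpG observed over expected ratio of at least 0.6 in 300 bases. Wilson and exact Poisson 95% intervals hold for counting error alone. No test was made, since each mark has 1 pooled list. Uniform placement was computed in closed form per chromosome over the ungapped NCBIM37 genome (mm9), with GENCODE release M1 for genes. Overlap code was tested on simulated data. Python 3.11.15, NumPy 2.4.6 and Matplotlib 3.10.9 were used.

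The lists and genes were chosen with earlier results of these data known. Named genes are, in each list, the first 3 of its most frequent promoter state and the first of each other state, at most 6 a list. Other genes are named where a count was small, and a few that the rule names are not reported here. The STAT5 motif was added to those planned. For a few genes no autosomal start was found under the symbols used (Hmgcs1, Sox1, Vsig4), and 445 of 487 male-biased and 582 of 644 female-biased genes were matched by symbol and place.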

Additional observations from a re-analysis of the deposited data

How the results depend on the processing

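Of 51 values recomputed under other settings, 29 stayed within the 95% interval of the share or within 1.5 times the count, among them the counts of promoters with H3K27ac and no H3K27me3 (7066 to 7739 genes) and with H3K27me3 and no H3K27ac (5093 to 6336 genes). The share of H3K27ac peaks overlapping H3K4me1 was 64.3%, and was 42.2% when 50% or more of the peak had to overlap, 42.0% by midpoint, 71.0% with peaks within 1 kb merged and 52.0% with the widest 50% of each list. The share of H3K27ac peaks overlapping H3K27me3 was 15.2%, 15.2%, 17.6% and 10.0% under the same settings, and that of H3K4me1 peaks 27.6%, 27.6%, 29.5% and 22.9%. Bases with all 3 marks fell to 0.409 Mb with the widest 50% of each list, which holds fewer peaks. The share of H3K27ac peaks without H3K27me3 that lay at promoters was 43.2%, and was 62.3% with the widest 50%, 16.9% and 50.7% with promoters within 250 bp and 3 kb, and 41.7% with protein-coding genes only. Placement within the same position class gave ratios of 7.06, 0.471 and 0.847 for these 3 overlaps and 3.95 for all 3 marks, and whole chromosome lengths gave 21.3, 0.491, 0.880 and 14.1. Joining H3K27me3 regions within 2.4 kb, chosen after the data were seen, moved no value beyond these limits. No paired analysis was possible because the livers of each mark were pooled before peaks were called, and for the same reason no liver could be left out. The lists give no depth, so a combination that was not called is not shown to be absent.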

Other observations

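The sequence between neighbouring H3K27me3 regions also differed by the length of the gap. Of 2973 gaps under 5 kb 1.88% held the start of a protein-coding gene, and 4.64% held an H3K27ac peak. Of 6077 gaps of 50 kb or more 55.3% held a start and 58.5% an H3K27ac peak. Per base the difference was small, with 18.8 H3K27ac peaks per Mb in the shortest gaps and 14.6 in the longest. H3K4me1 had 36.8 and 29.9 peaks per Mb in them. Genes with no mark at the promoter were short, with a median span of 4.01 kb compared to 28.4 kb for genes with H3K27ac alone, and 92.2% of them had no base in an H3K27me3 region.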
